A study of Mus musculus with 6 samples.

Results

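A set of 10 genes of neutrophil secondary granules and neutrophil maturation was followed: Ltf, Camp, Ngp, Lcn2, Chil3, Cd177, Pglyrp1, Fcnb, Lrg1 and Hp. They were listed by name, with earlier results of these data known, and rows were picked by gene symbol. Of the 10, 9 were found among the 15035 rows of the table of scaled read counts. Camp, which encodes the cathelicidin antimicrobial peptide, was not analysed here. The RNA came from mouse leukemia cells, which the labels describe as BALB/c bone marrow made to express mutant CSF3R and mutant CEBPA by retrovirus. Both groups carry both mutant genes, so neither is a normal marrow control. One group was given DMSO, the solvent, and the other 4 nM GSK-LSD1, which blocks LSD1, the lysine demethylase encoded by Kdm1a, both for 48 h, with 3 libraries in each. Separate cultures or mice are not named for the libraries within a group, and p-values therefore measure only the spread between these libraries, which may be technical.

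Neutrophils fill their granules in a fixed order as they mature. Promyelocytes make the primary granules with myeloperoxidase and elastase, myelocytes and metamyelocytes make the secondary or specific granules with lactoferrin, lipocalin and cathelicidin, and later cells make gelatinase granules. The transcription factor C/EBP epsilon is required for the secondary granule genes, and GFI1, a repressor that recruits LSD1, is required for neutrophil formation.

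Counted reads ranged from 9572638 to 10199533 per library, taking the smallest value in each as 1 read, and between 13879 and 14106 genes had a value above 0. The leukocyte and progenitor markers set out for the labelled cells were all tested, 9 of 9, with Ptprc (CD45) at 1781 ± 76.0 (SD, n = 3) with DMSO and Mpo at 7390.3 ± 377 (SD, n = 3). Kit was low, at 29.6 ± 4.82 (SD, n = 3) with DMSO. After GSK-LSD1, 6 of the 9 were called higher, among them Cd34 at 5.63-fold, 1 (Elane) lower, and 2 did not pass. Without DMSO replicate 3, 2 were called lower. Over all genes tested, 20.6% were called higher and 20.5% lower. Of late neutrophil markers, Retnlg was listed at 0 in the 3 DMSO libraries with a mean of 3.05 after GSK-LSD1, and Ly6g was not analysed here.

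Of the 9 genes analysed, 5 rose after GSK-LSD1, 2 fell, and 2 were too low to test. Lrg1 rose 3.95-fold, Hp 2.30-fold, Lcn2 2.23-fold, Pglyrp1 2.18-fold and Cd177 1.95-fold. Ngp was 2.46-fold lower and Chil3 1.27-fold lower. Ltf and Fcnb stayed under a value of 10 in all 6 libraries. A gene was tested where its value was at least 10 in at least 3 libraries, and the 7 tested genes were above 10 in all 6. All 7 passed an adjusted p of 0.05 by limma, and over the 11588 genes tested 20.6% were called higher, 20.5% lower and 41.1% either way. The median log2 fold change was 1.11 for the 7 genes and -0.01 for all genes tested. The groups did not overlap for any of the 7, nor for 49.5% of all tested genes.

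**Figure D1:**
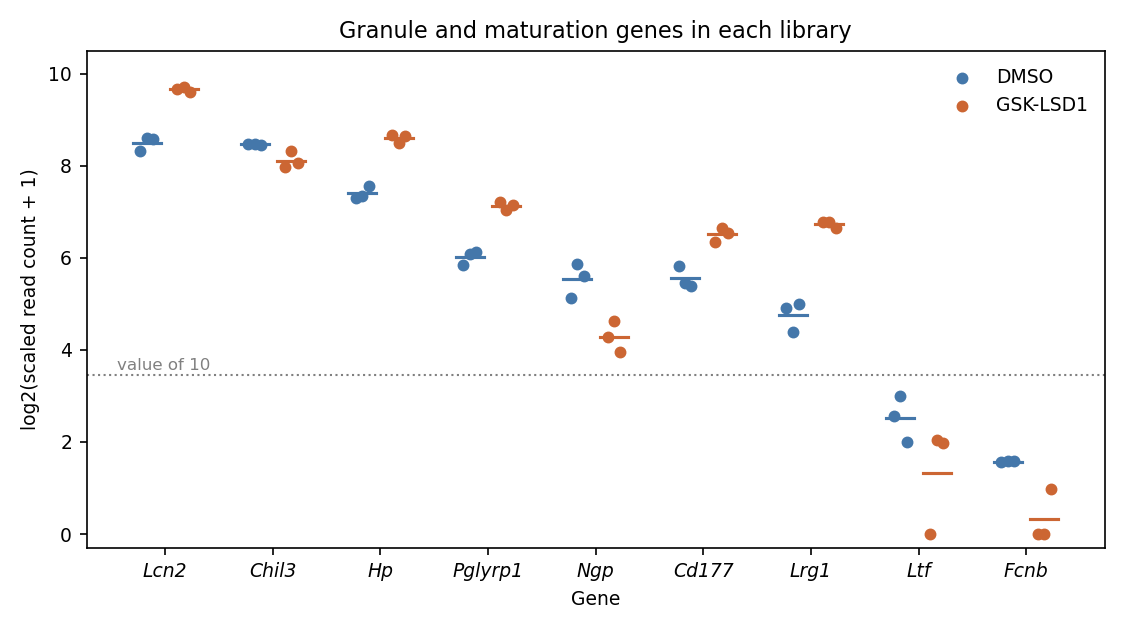
Scaled read counts of the 9 granule and maturation genes in each library, plotted as log2(value + 1), with points for libraries and short bars for group means of the plotted values. The dotted line marks a value of 10, under which Ltf and Fcnb lie in all 6 libraries. DMSO and GSK-LSD1 points do not overlap for the 7 genes above it.

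Lcn2 encodes lipocalin 2, which binds the iron carriers of bacteria (chromosome 2, 32384633 to 32388252, GRCm38). Its scaled read counts were 319, 390.4 and 380.3 in DMSO replicates 1, 2 and 3, and 810.1, 837 and 782 in the GSK-LSD1 replicates. Every treated library was above every control library, and DMSO replicate 1 was the lowest of the controls. The group means were 363 ± 38.4 and 809.7 ± 27.9 (SD, n = 3 each), and the log2 fold change was 1.16 with an SE of 0.0705 (limma, adjusted p = 5.30e-16). It had the largest mean of the 9 genes in each group, though with DMSO its libraries overlapped those of Chil3.

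Ngp encodes neutrophilic granule protein, a secreted secondary granule protein related in sequence to cystatins and cathelicidins (chromosome 9, 110419747 to 110423012). Its values were 34.2, 57.5 and 47.8 with DMSO and 18.4, 23.8 and 14.6 with GSK-LSD1. The 2 groups did not overlap, though both were low and the DMSO libraries were spread out. The means were 46.5 ± 11.7 and 18.9 ± 4.63 (SD, n = 3 each), with a log2 fold change of -1.25, an SE of 0.239 and an adjusted p of 6.23e-05 (limma). Among the 11588 tested genes it was the 66th from the bottom by fold change.

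Ltf encodes lactoferrin, the iron-binding protein by which secondary granules are usually recognised (chromosome 9, 111019271 to 111042767). Its values were 4.88, 6.94 and 2.99 with DMSO and 0, 3.11 and 2.92 with GSK-LSD1, so the groups overlapped. In units of the smallest value these were 15 reads with DMSO and 6 with GSK-LSD1, so that DMSO over GSK-LSD1, per read sequenced, was 2.41 (95% exact binomial counting interval 0.885 to 7.59). The 0 in GSK-LSD1 replicate 1 allows a value of up to 3.06, which is 3 reads, and such intervals and limits cover counting error only. A difference in lactoferrin RNA was therefore not detectable at this depth, and with no filter on low values its adjusted p was 0.0982 by limma.

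Ngp, Ltf and Camp lie on chromosome 9 within one stretch, with the start of Ngp 570 kb from that of Camp and 599.5 kb from that of Ltf by GENCODE M21. The window that runs 250 kb beyond Camp and Ltf held 71 annotated genes, of which 21 were tested. Of these, 5 were called higher, 5 were called lower and 11 did not pass, with a median log2 fold change of -0.00358, and Ngp had the lowest value. These counts are close to the shares over all genes tested, 20.6% higher and 20.5% lower. Ptpn23, whose start is 11.5 kb from that of Ngp, had a log2 fold change of 0.05 (adjusted p = 0.494 by limma), and Klhl18, at 56.9 kb on the other side, had 0.00 (adjusted p = 0.979). The largest rise in the window was that of Map4, a microtubule-binding protein gene, with 0.75. The genes next to Ngp thus did not pass the test in either direction.

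**Figure D2:**
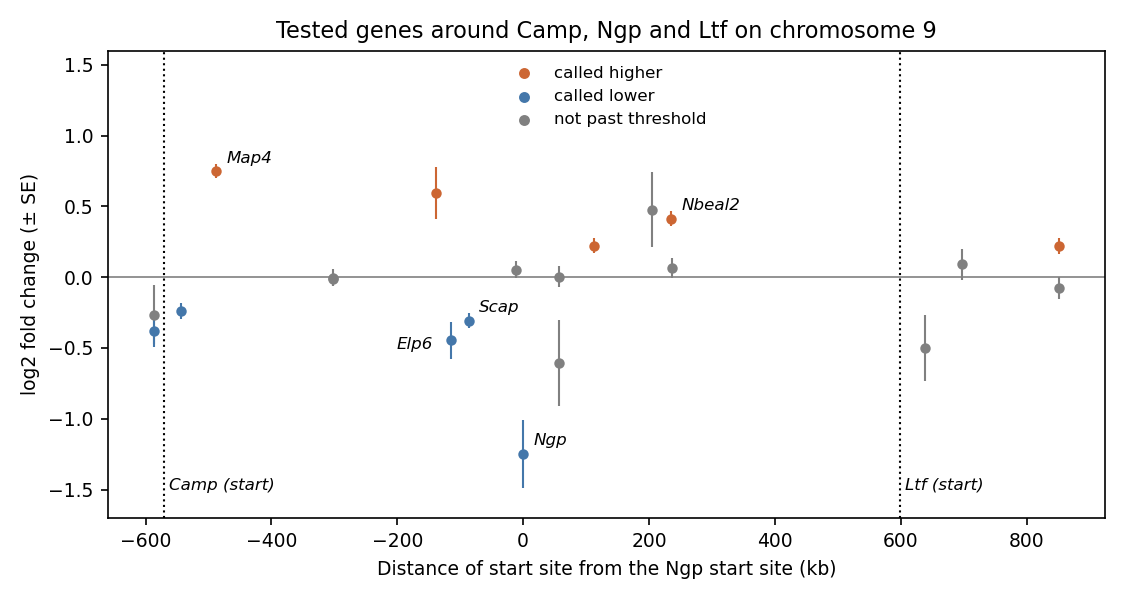
Log2 fold change, GSK-LSD1 minus DMSO, with its standard error, of the 21 tested genes around Ngp on chromosome 9, against the distance of each start site from that of Ngp in kb. Dotted lines mark the starts of Camp and Ltf, which have no point. Ngp, at -1.25, lies below all its neighbours.

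To show what the members share upstream, the bases before the start of 9 of the 10 genes were read from the RefSeq promoter table (GRCm38.p6), 250 bases each; Hp had no entry. The motifs searched, 3 in all, were, on both strands, TTGCNNAA for C/EBP, GAGGAAGT for PU.1 and AAATCAC for GFI1. The C/EBP letters stood in 4 of the 9 promoters (Fcnb, Lcn2, Ngp and Ltf) and in 9.56% of 32851 promoters of the same length. The GFI1 letters stood in 1 of the 9, that of Ltf, and in 2.75% of all, and the PU.1 letters in 0 of the 9 and 2.44% of all. No match overlapped another. The upstream runs of Ngp and Ltf are printed 5′ to 3′ because both genes were low or falling and both hold the same C/EBP match; each ends before the first base of the GENCODE transcript, and capitals mark matches. Ngp is chr9:110419558-110419746 and Ltf chr9:111019042-111019270, both on the plus strand.
Ngp: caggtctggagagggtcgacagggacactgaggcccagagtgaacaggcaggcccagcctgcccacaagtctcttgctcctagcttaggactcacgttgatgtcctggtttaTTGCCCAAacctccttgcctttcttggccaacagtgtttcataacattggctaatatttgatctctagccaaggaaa
Ltf: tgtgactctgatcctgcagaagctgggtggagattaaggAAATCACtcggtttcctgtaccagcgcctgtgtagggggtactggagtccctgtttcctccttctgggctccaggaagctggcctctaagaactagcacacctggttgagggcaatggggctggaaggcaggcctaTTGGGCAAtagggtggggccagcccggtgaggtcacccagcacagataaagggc

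The C/EBP match of Ngp lies at bases -138 to -131 from the RefSeq start and that of Ltf at -75 to -68, with the same 8 letters read from opposite strands. Those 8 letters, noticed after the matches were seen, stand in 0.709% of all promoters searched. Ngp has a further match at -11 to -4, inside the first exon of the GENCODE transcript. The Lcn2 match, at -216 to -209, lies inside the GENCODE gene, which starts further upstream than the RefSeq start. The matches of the other pair of genes are shown with 10 bases on each side, since 1 of these genes rose and the other was near 0. Lcn2 is chr2:32387938-32387965 and Fcnb chr2:28085096-28085123 and chr2:28084984-28085011, all on the minus strand.
Lcn2: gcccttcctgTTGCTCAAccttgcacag
Fcnb, distal: aaggcaggccTTTTGCAAacagaggtgc
Fcnb, proximal: tttaggtctcTTGTGCAAccagaggcct

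Before the RefSeq start, a match of these letters thus stood by 1 gene that rose, 1 that fell and 2 that were too low to test. For Lcn2, the gene that rose, it is not upstream of the GENCODE start. Lrg1, Pglyrp1, Cd177, Chil3 and Camp held none of the 3 motifs in the 250 bases, which says only that these letters are absent from this window.

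Pglyrp1 encodes a peptidoglycan recognition protein of the granules that binds bacterial cell walls (chromosome 7, 18871331 to 18890459). It was at 56.6, 66.4 and 68.7 with DMSO and at 147, 130.4 and 140.1 with GSK-LSD1. The lowest treated library was well above the highest control. The means were 63.9 ± 6.40 and 139 ± 8.29 (SD, n = 3 each), with a log2 fold change of 1.11, an SE of 0.133 and an adjusted p of 1.51e-08 (limma).

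Fcnb encodes ficolin B, a lectin that starts the complement cascade (chromosome 2, 28076378 to 28084885). It had 2 reads in each DMSO library and 0, 0 and 1 read in GSK-LSD1 replicates 1, 2 and 3, in units of the smallest value. DMSO over GSK-LSD1, per read sequenced, was 5.79 (counting interval 0.703 to 267), so no difference was detectable. The zeros of GSK-LSD1 replicates 1 and 2 allow values of up to 3.06 and 3.11. With no filter on low values its adjusted p was 0.0816 by limma.

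Chil3 encodes the chitinase-like lectin Ym1 of neutrophils and alternatively activated macrophages (chromosome 3, 106147554 to 106167564). Its values were 353, 356 and 350.4 with DMSO and 249.95, 317 and 266 with GSK-LSD1. The treated libraries were all lower, but GSK-LSD1 replicate 2 came close to the controls, which were nearly equal to each other. The means were 353 ± 2.69 and 277 ± 34.9 (SD, n = 3 each), with a log2 fold change of -0.35, an SE of 0.0845 and an adjusted p of 0.000906 (limma). The longest coding transcripts of Chil3 and its neighbour Chil4 are identical at 94.3% of aligned positions in GENCODE M21. Reads of the pair can be hard to separate, the counting of shared reads is not given in the sources used here, and Chil4 was not analysed here, so the Chil3 values are uncertain to that extent.

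Hp encodes haptoglobin, which binds free hemoglobin and is made by the liver as well as stored in neutrophil granules (chromosome 8, 109575128 to 109579172). It was at 157, 162 and 187 with DMSO and at 406, 361 and 397 with GSK-LSD1, with a wide gap between the groups. The means were 169 ± 16.2 and 388 ± 23.7 (SD, n = 3 each), with a log2 fold change of 1.20, an SE of 0.0894 and an adjusted p of 1.34e-13 (limma).

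Lrg1, a leucine-rich glycoprotein gene known for modulating TGF-beta signalling, is likewise expressed by both liver and neutrophils (chromosome 17, 56119678 to 56122001). Its values were 29.3, 19.8 and 30.9 with DMSO and 108, 109 and 99.3 with GSK-LSD1. The treated libraries were close to each other, and DMSO replicate 2 was the lowest control. The means were 26.7 ± 5.97 and 105 ± 5.28 (SD, n = 3 each), with a log2 fold change of 1.97, an SE of 0.180 and an adjusted p of 3.11e-11 (limma). It stood 159th from the top of the 11588 tested genes.

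Cd177 encodes a surface glycoprotein of neutrophils that is stored in secondary granule membranes (chromosome 7, 24743983 to 24760311). It was at 55.7, 42.6 and 40.8 with DMSO and at 80.6, 99.4 and 91.5 with GSK-LSD1. DMSO replicate 1 was the highest control and GSK-LSD1 replicate 1 the lowest treated library, and a gap remained between them. The means were 46.4 ± 8.11 and 90.5 ± 9.42 (SD, n = 3 each), with a log2 fold change of 0.96, an SE of 0.162 and an adjusted p of 1.02e-05 (limma).

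**Figure D3:**
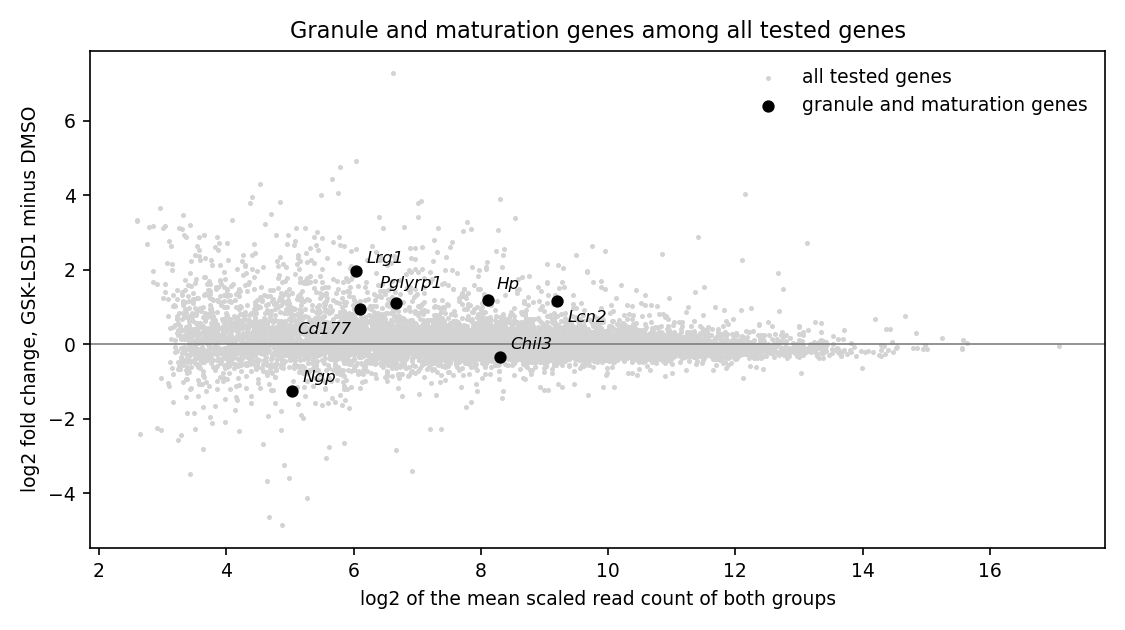
Log2 fold change, GSK-LSD1 minus DMSO, against the log2 of the mean scaled read count of both groups, with all 11588 tested genes in grey and the 7 tested granule and maturation genes in black. Lrg1 (1.97) and Ngp (-1.25) lie far from 0, and Chil3 (-0.35) lies closer to it.

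The order of the genes by level per exon length differed between DMSO and GSK-LSD1. Per kb of merged GENCODE exon, Chil3 was highest with DMSO at 216 ± 1.65 scaled reads per kb (SD, n = 3), followed by Lcn2 at 139 ± 14.7 and Hp at 105.0 ± 10.1. With GSK-LSD1, Lcn2 was highest at 309 ± 10.6 per kb, followed by Hp at 242 ± 14.8 and Chil3 at 170.0 ± 21.4. Ngp was above Pglyrp1, Lrg1 and Cd177 with DMSO at 38.0 ± 9.58 per kb and below all 3 with GSK-LSD1 at 15.5 ± 3.79. Between neighbours in the order, the library ranges of Ngp and Pglyrp1 overlapped with DMSO, as did those of Lrg1 and Cd177, and those of Pglyrp1 (75.8 ± 4.51) and Lrg1 (74.8 ± 3.75) overlapped with GSK-LSD1. Ltf and Fcnb were lowest in both groups, at or under 1.48 per kb on average, and did not differ from each other beyond their spread. The order depends on the lengths used, which merge all annotated exons, 2623 bases for Lcn2 and 1632 for Chil3. Which transcripts the cells made was not tested. By plain scaled read counts with DMSO, Lcn2 had a larger mean than Chil3 (363 and 353) and Pglyrp1 than Ngp (63.9 and 46.5), both with overlapping libraries.

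**Figure D4:**
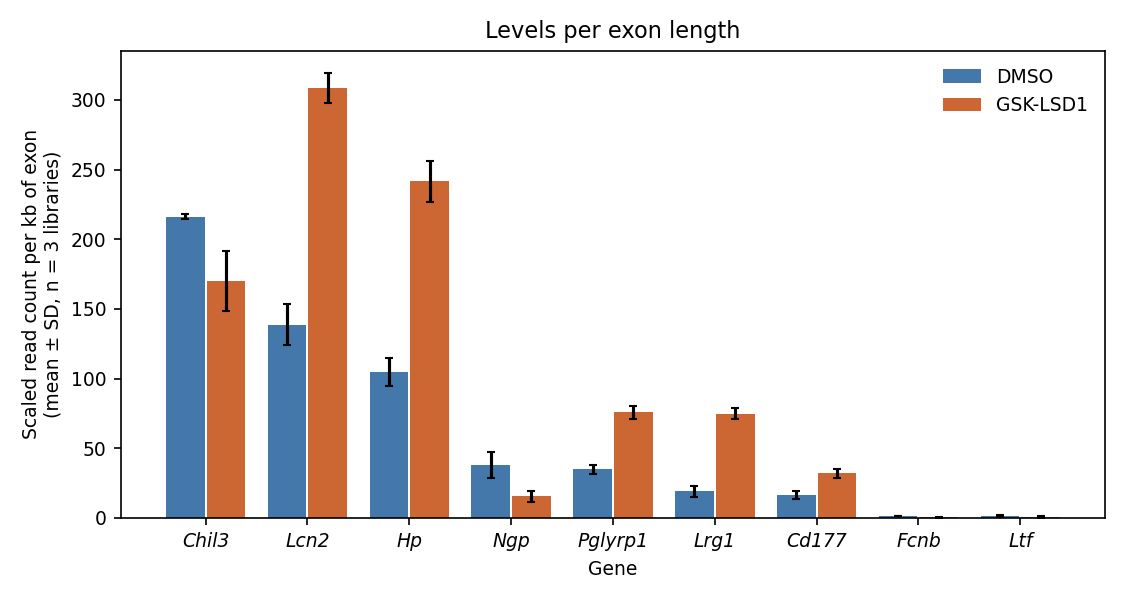
Mean scaled read count per kb of exon for the 9 genes, with SD over 3 libraries per group as error bars. Chil3 is the highest gene with DMSO (216) and Lcn2 with GSK-LSD1 (309), while Ltf and Fcnb are close to 0.

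Pairs of these genes can also be compared inside each library. Lcn2 divided by Chil3, as scaled read counts, was 0.906, 1.10 and 1.09 in the DMSO libraries and 3.24, 2.64 and 2.94 in the GSK-LSD1 libraries. Lrg1 divided by Ngp was 0.857, 0.345 and 0.646 with DMSO and 5.89, 4.57 and 6.80 with GSK-LSD1. Such ratios do not depend on the scaling of the libraries. Each pair set a gene that rose over a gene that fell, both without overlap. The ratios therefore could not overlap between groups, and they add no separate evidence. The 9 genes together took 0.0102% to 0.0110% of the total value with DMSO and 0.0181% to 0.0190% with GSK-LSD1, small shares in both groups.

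Of 20 other genes of specific granule contents and membranes, 15 were tested, and 12 rose, none fell and 3 did not pass, with a median log2 fold change of 0.76 beside -0.01 for all tested genes. With weights per library in the fit, 1 of them was called lower. Counts here and in the lists below stand beside 20.6% called higher and 20.5% lower over all genes tested. The neutrophil collagenase gene Mmp8 rose 6.56-fold to 15579 ± 296 (SD, n = 3), more than all 9 genes described above combined, which summed to at most 1881 in a library. The lysozyme gene Lyz2, the CD11b gene Itgam and the growth factor gene Hgf rose 4.14-fold, 3.54-fold and 2.59-fold. Olfm4, a marker of a subset of specific granules, was too low to test at 11.5 ± 6.03 with DMSO and 5.77 ± 2.47 with GSK-LSD1 (SD, n = 3 each).

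Of 19 tested genes of gelatinase granules and mature neutrophils, out of 26 listed, 17 rose, none fell and 2 did not pass, with a median of 1.27. Without DMSO replicate 3, 1 was called lower, and with the filter set at a mean of 50, which tests fewer genes, 10 were called higher. The strongest rises were in genes of low level, with Fpr1 and Fpr2, receptors for formylated bacterial peptides, at log2 fold changes of 3.33 and 3.24. Wfdc17 rose from 5.60 ± 0.558 to 49.7 ± 2.83 and the gelatinase gene Mmp9 from 9.22 ± 1.56 to 73.96 ± 0.848 (SD, n = 3 each). S100a8 and S100a9, the calprotectin subunits abundant in neutrophil cytosol, rose 2.08-fold and 2.89-fold. Of 11 tested primary granule genes, 3 rose, 7 fell and 1 did not pass, with a median of -0.17. Serpinb1a, counted as a rise at 0.12, did not pass under 3 alternatives. Its adjusted p by limma was 0.128 without the mean-variance trend, 0.0891 without DMSO replicate 2 and 0.217 without GSK-LSD1 replicate 3. Prss57, counted as a fall at -0.14, was near the threshold (adjusted p = 0.0494 by limma). Ms4a3, Elane and Prtn3 fell with log2 fold changes of -1.15, -0.92 and -0.67, while Man2b1 and Mpo rose with 0.67 and 0.28. The sum of the 9 secondary granule and maturation genes was 4.28% to 4.70% of the sum of the primary granule list with DMSO and 7.08% to 7.38% with GSK-LSD1.

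**Figure D5:**
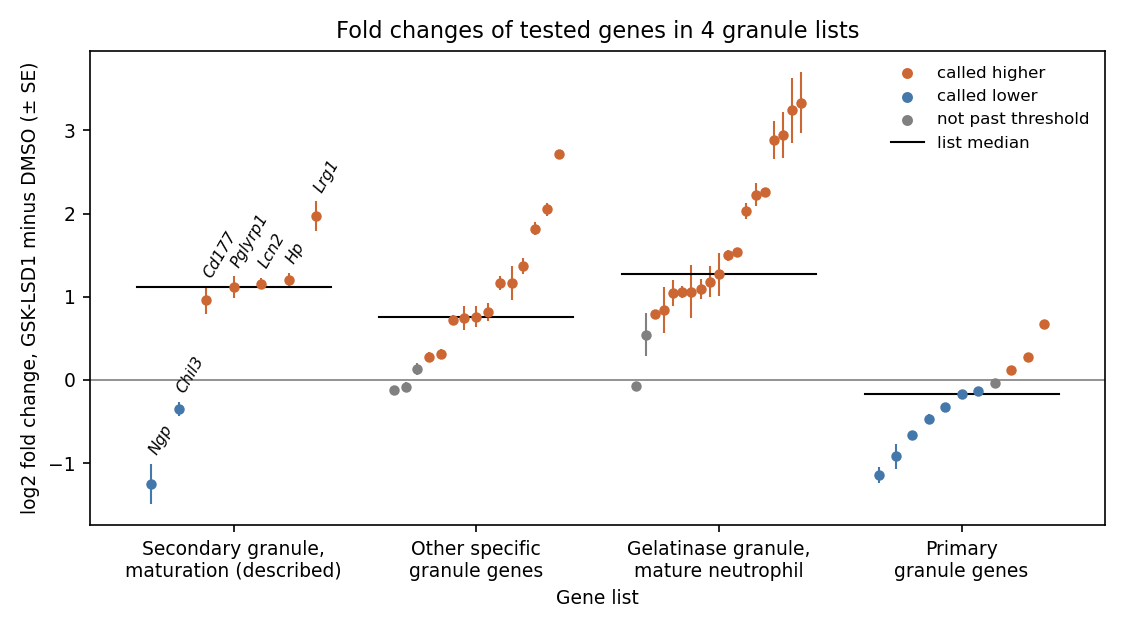
Log2 fold change, GSK-LSD1 minus DMSO, with its standard error, for the tested genes of 4 granule lists, where each point is a gene and the black line a list median. The genes described here have a median of 1.11 with Ngp and Chil3 below 0, and the primary granule list has a median of -0.17.

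Among 20 tested regulators of granule genes, 9 rose, 2 fell and 9 did not pass, with a median of 0.07. Without DMSO replicate 3, 4 were called lower. Over all genes tested, 41.1% were called either way, 20.6% higher and 20.5% lower. Cebpe, which encodes C/EBP epsilon, rose 1.54-fold, from 149 ± 5.15 to 230.4 ± 17.5 (SD, n = 3 each). Gfi1, its relative Gfi1b and Irf8 had log2 fold changes of 3.06, 2.89 and 1.23, and Spi1, which encodes PU.1, rose 1.17-fold. Smarcd2, a chromatin remodelling subunit needed for specific granules, fell with a log2 fold change of -0.17, and Myc with -0.22. Cebpa had a log2 fold change of -0.03 (adjusted p = 0.734 by limma), and without DMSO replicate 3 it was -0.13 with an adjusted p of 0.00868. Kdm1a itself was at 1257 ± 59.6 and 1227 ± 16.3 (SD, n = 3 each). Csf3r rose 4.09-fold, and whether reads of the retroviral copies are counted under Cebpa and Csf3r was not tested.

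Acute phase genes, many of which the liver makes during inflammation as it does Hp and Lrg1, were analysed for 11 of 18 listed. Only 6 were high enough to test. Of these 4 rose, none fell and 2 did not pass, where 20.6% of all genes tested were called higher. The serum amyloid gene Saa3 rose 3.83-fold, the complement gene C3 2.14-fold and Lbp, which binds bacterial lipopolysaccharide, 1.59-fold. Hpx, the hemopexin gene, was at 0.994 ± 0.995 with DMSO and 0.324 ± 0.562 with GSK-LSD1 (SD, n = 3 each), under the value of 3 reads. The liver markers Alb, Apoa1 and Ttr were not analysed here.

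Of 13 genes for receptors and partners of these proteins, 11 were tested, and 8 rose (5 with the filter at a mean of 50), 2 fell and 1 did not pass. The shares over all genes tested were 20.6% higher and 20.5% lower. Lrp1, a receptor for lactoferrin and other ligands, rose from 33.6 ± 0.335 to 167 ± 5.31 (SD, n = 3 each), and Trem1, which PGLYRP1 can bind, from 13.2 ± 2.01 to 33.2 ± 5.84. The 2 that fell were the proteases Elane and Prtn3, given above; the latter cleaves human cathelicidin and binds CD177 at the cell surface. Slc22a17, the lipocalin 2 receptor gene, was at 5.93 ± 2.64 and 12.5 ± 1.79 and was called higher (adjusted p = 0.0373 by limma), but its adjusted p was 0.123 without DMSO replicate 1, 0.0735 without DMSO replicate 3, between 0.0583 and 0.123 without any 1 of the GSK-LSD1 libraries, 0.266 with quantile scaling and 0.0546 with a replicate block. Of the close relatives of the 10 genes, 4 were tested and 3 rose: Chil1 2.24-fold, Plaur 1.77-fold and the transferrin gene Trf 1.53-fold. Chil1 and Plaur also count among the specific granule genes above, as Trem1 and Fpr2 do among the gelatinase and mature neutrophil genes.

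Several of these genes are also expressed by monocytes, and monocyte markers moved in the same libraries. Of 9 tested monocyte and macrophage markers out of 15 listed, 8 were higher and 1 did not pass, and with quantile scaling or without the mean-variance trend 1 was called lower. For these and the marker lists below, the shares over all genes tested were 20.6% higher and 20.5% lower. Adgre1, Ctss and Mpeg1 led with log2 fold changes of 3.12, 2.76 and 2.60, and the summed list, mostly F13a1, ran from 13029 to 13733 with DMSO and from 15547 to 15659 with GSK-LSD1. Klf4, a regulator of monocytes, and Ly6c2 were too low to test, and C1qa, C1qb and C1qc were not analysed here. Mast cell, basophil and eosinophil markers summed to between 28606 and 30687 with DMSO and between 37251 and 38677 with GSK-LSD1, and 3 of the 7 tested were called higher and 1 lower. The largest of them, Cpa3, went from 14320 ± 982 to 23028 ± 597 (SD, n = 3 each). Fcer1a, the 1 called lower, went from 5758 ± 149 to 4518 ± 265. The 5 tested erythroid markers were all lower, summing to between 200.2 and 269 with DMSO and between 22.4 and 35.7 with GSK-LSD1; with the filter at a mean of 50, 0 were called. None of 9 lymphoid markers was tested, with sums of 3.91 to 6.94 and 6.21 to 15.3, and of 8 stromal and liver markers the 2 tested, Pdgfrb and Col1a1, rose. Col1a1 did not pass under quantile scaling (adjusted p = 0.287 by limma), with no filter on low values (0.0636), without DMSO replicate 1 (0.126) or 2 (0.0542), or without GSK-LSD1 replicate 2 (0.171) or 3 (0.106). The part of these cell types in the fold changes above was not tested, and in bulk RNA a change in the number of cells of a type and a change in RNA per cell cannot be told apart.

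By the distance between centred log2 profiles over the 6 libraries, the genes most like Lrg1 among 9851 compared (mean value 50 or more) were Mgst1, Epas1 and Gm7694, at distances of 0.246, 0.281 and 0.364. Those most like Ngp, among 9852, were Gm4980, B4galnt2 and Alox8, at 0.502, 0.530 and 0.576. The profiles consist mainly of the difference between the 2 groups, so likeness means a fold change of similar size.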

How the data were processed

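The deposited values are a normalised signal for each symbol in each library. They behave as read counts over a library factor: low values were, within 0.1, whole multiples of the library's smallest value in 100% of cases. Per the submitters' processing notes, the genome was mm10, also written GRCm38, and STAR and DESeq2 were used in roles not given. The versions, counting program, strand setting and any filter were not given in the sources used here. Genes reaching 10 in at least 3 libraries (11588) were fitted by limma 3.58.1 under R 4.3.3 on log2(value + 1) with trended variances. Tests were two-sided, and p-values were adjusted by Benjamini-Hochberg across those genes. Changes given as "-fold" are ratios of group means; log2 fold changes use log2(value + 1) and understate low genes. The fit was tested on simulated data. Libraries within a group differed beyond sampling noise (chi-square per degree of freedom 1.57 to 3.51). Positions and exon lengths came from GENCODE M21. From each list, up to 4 genes called in each direction could be named, with Cebpe, Cebpa, Spi1, Gfi1, Kdm1a and Csf3r; other genes were named after their values were seen. Genes and lists were chosen with earlier results of these data known.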

Additional observations from a re-analysis of the deposited data

How the results depend on the processing

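The count of 5 genes called higher held under all 15 alternatives (other pseudocounts, filters, scalings, variance models, a replicate block and each library left out), and the count of 2 called lower held under 14. With a filter at a mean value of at least 50 it was 1, since Ngp was then not tested. The log2 fold change ranged from 1.76 to 2.08 for Lrg1, 1.07 to 1.21 for Lcn2, 1.15 to 1.28 for Hp, 0.95 to 1.17 for Pglyrp1, 0.75 to 1.09 for Cd177, -1.51 to -1.08 for Ngp and -0.45 to -0.28 for Chil3, where the largest adjusted p was 0.0319, without the mean-variance trend. With the replicate block, 5 and 2 genes were called as before, and 2345 and 2316 of all genes in place of 2389 and 2373. Same-numbered libraries did not deviate together (correlations -0.0241, -0.0276 and -0.00771). Low correlations cannot exclude that they shared a culture or day, so whether the numbers pair them is not known. Depth limits Ltf and Fcnb, at 7 reads or fewer per library.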

Other observations

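Of the genes next to Lcn2, Lrg1, Hp and Pglyrp1 on their chromosomes, 6 were tested and 0 were called higher by limma. With 20.6% of all genes tested called higher, so small a number says little. Ptges2 and 1110008P14Rik, on either side of Lcn2, had log2 fold changes of -0.20 (adjusted p = 0.0842 by limma) and -0.09 (adjusted p = 0.559). Sema6b, 1.08 kb from Lrg1, fell with -0.44 (adjusted p = 1.81e-06 by limma) while Lrg1 rose. Beside Hp, Dhodh fell with -0.28 (adjusted p = 0.00375 by limma) and Txnl4b had -0.07 (adjusted p = 0.673). Ccdc61, 0.424 kb from Pglyrp1, had 0.09 (adjusted p = 0.499 by limma). Plin5 beside Lrg1, Mill2 beside Pglyrp1 and the nearest genes of Chil3, Cd177 and Fcnb were too low to test or were not analysed here. None of the 10 genes overlapped an exon of another annotated gene in GENCODE M21.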
